A study of Mus musculus with 9 samples.

Results

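The subject is the core of mitochondrial fatty acid oxidation, described through the transcripts of 9 enzymes and carriers: Cpt1a, Cpt2, Slc25a20, Acadm, Acadl, Acadvl, Hadha, Hadhb and Acaa2. The genes were taken from a list of symbols, with no threshold on expression, and all 9 were found among the 34866 Ensembl gene identifiers of the deposited tables. Expression was measured by mRNA sequencing, in paired-end reads of 75 bases, in cultured primary macrophages of the mouse, the innate immune cells that engulf microbes and dying cells. Growth was in alpha-MEM that held serum and L929-conditioned medium, L929 being a mouse fibroblast line. The standard oxygen group (3 samples) stayed in standard oxygen for 7 days. The acute hypoxia group (3 samples) spent its last 3 hours at 1% oxygen after standard culture, while the chronic hypoxia group (3 samples) was kept at 1% oxygen for 7 days. No genotype, strain, age or tissue of origin is given in the labels, so the groups differ, as far as stated, in oxygen alone. Expression is given in TPM, a relative abundance corrected for transcript length. Values of different genes can therefore be compared within a library, but the sequencing depth is unknown and the spread between the 3 replicates was the measure of error.

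Fatty acids are burned in mitochondria in a fixed order. A long-chain acyl-CoA made in the cytosol cannot cross the inner membrane, so CPT1 on the outer membrane moves the acyl group onto carnitine, the carrier encoded by Slc25a20 exchanges acylcarnitine for free carnitine across the inner membrane, and CPT2 restores the acyl-CoA inside. Beta-oxidation then shortens the chain in repeated rounds of dehydrogenation, hydration, a further dehydrogenation and thiolytic cleavage, feeding electrons to the respiratory chain and acetyl-CoA to the tricarboxylic acid cycle. CPT1 is the step at which malonyl-CoA, the first product of fatty acid synthesis, restrains entry. In macrophages fatty acid oxidation is best known for its association with alternative activation and with the handling of lipid from engulfed cells. Respiration needs oxygen, and the hypoxia-inducible factors are known to favour glycolysis and the storage of lipid in droplets.

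The samples carried 2 labels that could pair them across groups, a number in the title and digits in the description that recur once in each group, here called codes X, Y and Z. The libraries of code Z stood apart: Mertk, a receptor for dying cells, was 2.21 to 3.37 TPM in those 3 libraries and 21.8 to 33.3 TPM in the other 6. None of the 9 members separated the libraries of code Z from the other 6. All 10 macrophage markers reached 1 TPM in every group. The summed T cell, B cell, dendritic cell, fibroblast, mast cell and erythroid markers stayed between 0 and 1.95 TPM in each library. The neutrophil list summed to 898.5 to 1595.5 TPM at standard oxygen, 940.5 to 1909.7 TPM under acute hypoxia and 260.0 to 584.5 TPM under chronic hypoxia. S100a8 held nearly all of that sum. S100a9, Elane, Mpo and Ly6g were at most 0.765 TPM in any library, and Ngp, Camp and Ltf at most 3.81 TPM. The mean of Ngp was 2.56 TPM at standard oxygen and 0.11 TPM under chronic hypoxia, while that of Camp was 0.832 and 1.82 TPM. The part of this list in the results was not tested. These are bulk samples, in which fewer cells of a type and less RNA per cell cannot be told apart. Transcripts of the mitochondrial genome took 4.41% to 5.69% of the total in standard oxygen, 4.53% to 5.34% in acute hypoxia and 2.61% to 3.78% in chronic hypoxia, and the part of this shift in the results was not tested. The median log2 fold change of all genes tested was 0.01 for acute hypoxia against standard oxygen, 0.16 for chronic hypoxia against standard oxygen and 0.14 for chronic against acute hypoxia. Median-of-ratios rescaling, which brings these medians near 0, was therefore set beside the values as deposited.

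Cpt1a was the member whose level passed a test, in chronic hypoxia against standard oxygen. This gene encodes the widely expressed (liver-type) isoform of carnitine palmitoyltransferase 1. In standard oxygen it was 34.8, 40.5 and 37.3 TPM in replicates 1, 2 and 3. In acute hypoxia it was 71.9, 70.3 and 55.5 TPM, and in chronic hypoxia 55.8, 58.4 and 66.1 TPM. All 6 hypoxic libraries lay above all 3 standard oxygen libraries, and the acute and chronic ranges overlapped. The means were 37.5 ± 2.87 TPM at standard oxygen, 65.9 ± 9.03 TPM under acute hypoxia and 60.1 ± 5.33 TPM under chronic hypoxia (SD, n = 3).

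In chronic hypoxia Cpt1a rose by a log2 fold change of 0.66 ± 0.111 (SE), a 1.58-fold change with a 95% interval of 0.40 to 0.93 on the log2 scale and an adjusted p of 0.0391 (limma, Benjamini-Hochberg). After rescaling the change was 0.49 with a limma adjusted p of 0.0445. Within codes X, Y and Z the chronic library exceeded the standard oxygen library by 0.66, 0.63 and 0.69. In acute hypoxia the log2 fold change was 0.79 ± 0.129 (SE), with an interval of 0.48 to 1.1 and an unadjusted limma p of 0.000627, but over the 10987 genes tested the adjusted p was 0.138 and the difference did not pass. The within-code differences were 1.02, 0.90 and 0.44, so the library of code Z showed the smallest. Without the 3 libraries of code Z the acute difference was 0.96 with a limma adjusted p of 0.0105. Without those of code X it was 0.67 and without those of code Y 0.73, each with a limma adjusted p of 1. Chronic and acute hypoxia differed in Cpt1a by -0.13 ± 0.134 (SE), with an interval of -0.45 to 0.20 and a limma adjusted p of 0.637. The chronic call was lost when replicate 1 or 3 of standard oxygen or replicate 1 or 2 of chronic hypoxia was left out. The limma adjusted p was then between 0.115 and 0.18, with log2 fold changes of 0.61 to 0.71. In these fits the count of all genes called fell from 298 to between 1 and 25. With the code as a block, a term for the shared code in the fit, the chronic limma adjusted p of Cpt1a was 0.0108, and 0.021 with rescaling added. With the title number as a block it was 0.172.

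**Figure D1:**
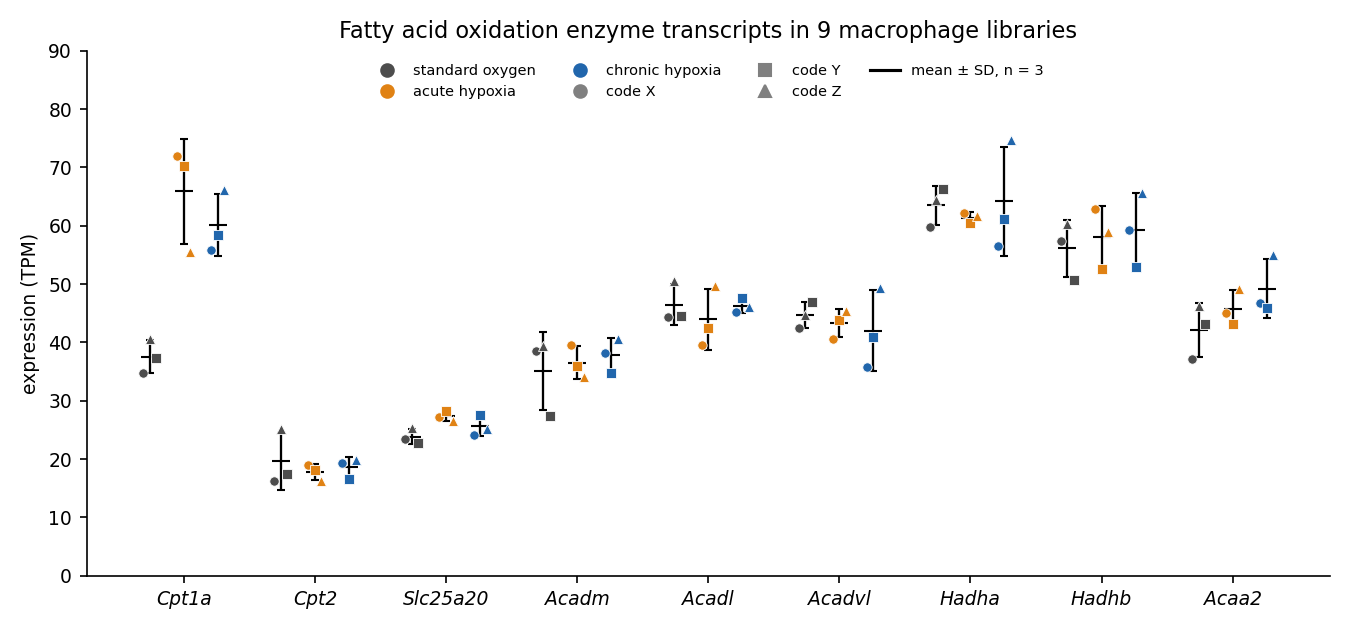
Expression (TPM, linear axis from 0) of the 9 enzyme transcripts in each of the 9 libraries. Colours mark the oxygen group, symbols the sample code, and black marks the mean ± SD (n = 3). The hypoxic libraries of Cpt1a sit between 55.5 and 71.9 TPM, above the standard oxygen libraries at 34.8 to 40.5 TPM, while the groups of the other members overlap except for acute hypoxia against standard oxygen in Slc25a20.

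The Cpt1a gene (ENSMUSG00000024900) lies on the plus strand of chromosome 19 at 3322334 to 3385733 (GRCm38, GENCODE M21). RefSeq places a transcription start at 3323301, inside the GENCODE gene. The 250 bases before that start, chr19:3323051-3323300 on the plus strand (RefSeq, GRCm38.p6), are shown because Cpt1a was the member that passed. The capitals mark the hexamer AGGTCA, read on the opposite strand, the unit repeated in the elements that peroxisome proliferator-activated receptors (PPARs) and other nuclear receptors bind:

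Cpt1a: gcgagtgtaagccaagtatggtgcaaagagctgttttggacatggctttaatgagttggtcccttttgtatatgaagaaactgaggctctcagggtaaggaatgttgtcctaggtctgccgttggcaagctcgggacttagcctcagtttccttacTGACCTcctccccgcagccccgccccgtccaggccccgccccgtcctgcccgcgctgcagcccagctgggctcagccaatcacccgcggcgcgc

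The hexamer began 94 bases before the start and was the single match in this window. AGGTCA occurs on either strand in 14.0% of the 32817 RefSeq promoter windows of the same length, and in 3 of the 8 members that have one. The direct repeat of this hexamer with 1 spacer base was in none of the 8 and in 0.0335% of all windows. The hypoxia response core was searched as ACGTG and as GCGTG on both strands. Neither was in the Cpt1a window. ACGTG was found in 1 of the 8 members (Acadvl) and in 16.6% of all windows, and GCGTG in 3 of the 8 (Acadm, Cpt2 and Acadvl) and in 28.1% of all windows. These matches describe letters within 250 bases and say nothing of binding.

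The other members of the carnitine shuttle did not pass in any comparison. Slc25a20, the carnitine-acylcarnitine carrier of the inner membrane (ENSMUSG00000032602, chromosome 9, 108662088 to 108684641), was 23.5, 25.3 and 22.7 TPM at standard oxygen, 27.2, 28.3 and 26.6 TPM under acute hypoxia and 24.2, 27.6 and 25.2 TPM under chronic hypoxia. The 3 acute libraries lay above the 3 standard oxygen libraries, by a log2 fold change of 0.19 ± 0.091 (SE, interval -0.03 to 0.41, limma adjusted p 0.779), and the chronic range overlapped both. Its longest transcript was cut into stretches of 75 bases, and 4.22% of them also occur in other listed genes, so a small part of its value is uncertain.

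Cpt2, which rebuilds the acyl-CoA in the matrix (ENSMUSG00000028607, chromosome 4, 107903981 to 107923610), was the lowest of the 9 in every library. It was 16.2, 25.2 and 17.5 TPM at standard oxygen, 18.9, 18.2 and 16.3 TPM under acute hypoxia and 19.3, 16.6 and 19.9 TPM under chronic hypoxia. Replicate 2 of standard oxygen was the high library, and the 3 groups overlapped. The log2 fold change against standard oxygen was -0.11 ± 0.176 in acute and -0.05 ± 0.182 in chronic hypoxia (SE). The limma adjusted p was 1 and 0.891. The ratio of Cpt1a to Cpt2 in TPM was 1.61 to 2.15 in the standard oxygen libraries, 3.41 to 3.87 in acute hypoxia and 2.89 to 3.52 in chronic hypoxia, with no overlap between standard oxygen and either hypoxic group.

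The first step of each round of beta-oxidation is carried out by acyl-CoA dehydrogenases that differ in chain length. Acadvl acts on very long chains, Acadl on long chains and Acadm on medium chains, and all 3 pass electrons to the electron transfer flavoprotein. Acadvl (ENSMUSG00000018574, chromosome 11, 70010183 to 70015411) was 42.5, 44.7 and 46.9 TPM at standard oxygen, 40.6, 43.9 and 45.4 TPM under acute hypoxia and 35.7, 40.9 and 49.4 TPM under chronic hypoxia. The chronic libraries of Acadvl spread on both sides of the standard oxygen libraries. Its longest transcript shares 14.0% of its 75-base stretches with Dvl2, and the strand setting of the counting is not given in the sources used here, so its level is uncertain to that extent. Acadl (ENSMUSG00000026003, chromosome 1, 66830839 to 66863277) was 44.4, 50.5 and 44.5 TPM at standard oxygen, 39.6, 42.5 and 49.7 TPM under acute hypoxia and 45.2, 47.6 and 46.1 TPM under chronic hypoxia. Its log2 fold change in chronic hypoxia was 0.00 ± 0.0969 (SE), with an interval of -0.23 to 0.23.

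Acadm (ENSMUSG00000062908, chromosome 3, 153922357 to 153944632) was 38.5, 39.4 and 27.3 TPM at standard oxygen, 39.6, 36.0 and 34.0 TPM under acute hypoxia and 38.2, 34.8 and 40.6 TPM under chronic hypoxia. The low library was replicate 3 of standard oxygen, and the other 8 lay between 34.0 and 40.6 TPM. Against standard oxygen the log2 fold changes of Acadvl, Acadl and Acadm were -0.04, -0.08 and 0.07 in acute hypoxia, each with a limma adjusted p of 1. In chronic hypoxia they were -0.10, 0.00 and 0.12, with limma adjusted p-values of 0.709, 0.993 and 0.689.

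For long chains, the steps after the first dehydrogenation are held by the mitochondrial trifunctional protein. Hadha encodes its alpha subunit, with the hydratase and hydroxyacyl-CoA dehydrogenase activities, and Hadhb its beta subunit, the long-chain thiolase. Hadha (ENSMUSG00000025745, minus strand of chromosome 5, 30118304 to 30155162) was 59.8, 64.4 and 66.3 TPM at standard oxygen, 62.1, 60.4 and 61.7 TPM under acute hypoxia and 56.6, 61.2 and 74.7 TPM under chronic hypoxia. Hadhb (ENSMUSG00000059447, plus strand of chromosome 5, 30155248 to 30184593) was 57.3, 60.3 and 50.7 TPM at standard oxygen, 62.9, 52.5 and 58.9 TPM under acute hypoxia and 59.3, 53.0 and 65.6 TPM under chronic hypoxia. The 2 subunits had the 2 highest means of the 9 in standard oxygen, and their ratio in a library ran from 0.954 to 1.31 over the 9 libraries. Their log2 fold changes against standard oxygen were -0.05 (Hadha) and 0.05 (Hadhb) in acute hypoxia and 0.01 (Hadha) and 0.08 (Hadhb) in chronic hypoxia, with limma adjusted p-values of 1, 1, 0.982 and 0.743.

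Hadha and Hadhb are neighbours transcribed in opposite directions. RefSeq (GRCm38.p6) sets their starts 273 bases apart, at 30154980 for Hadha and 30155253 for Hadhb, so that 228 of the 250 bases before either start belong to both genes. Shown are the 250 bases before the Hadhb start, which fill most of the gap between the RefSeq starts. Nearly all of them also precede the RefSeq start of Hadha. GENCODE M21 starts the Hadha gene nearer to Hadhb, at 30155162, so the bases shown up to that position lie inside its Hadha gene. The window is chr5:30155003-30155252 on the plus strand (RefSeq, GRCm38.p6). It holds none of the short motifs searched above on either strand and is therefore in lower case throughout:

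Hadhb: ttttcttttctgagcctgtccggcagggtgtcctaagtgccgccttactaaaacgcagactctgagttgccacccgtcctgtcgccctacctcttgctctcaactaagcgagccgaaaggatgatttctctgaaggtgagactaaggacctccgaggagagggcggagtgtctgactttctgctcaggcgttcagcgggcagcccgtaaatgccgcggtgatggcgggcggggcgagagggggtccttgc

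Acaa2, the matrix thiolase for medium and shorter chains (ENSMUSG00000036880, chromosome 18, 74779197 to 74806208), was 37.1, 46.2 and 43.1 TPM at standard oxygen, 45.1, 43.1 and 49.2 TPM under acute hypoxia and 46.7, 45.9 and 55.0 TPM under chronic hypoxia. The groups overlapped, and in each code the chronic library was the higher one, by 0.09 to 0.32 on the log2 scale. Its log2 fold change in chronic hypoxia was 0.22 ± 0.126 (SE, interval -0.08 to 0.52), the highest of the 8 members other than Cpt1a, with a limma adjusted p of 0.346. After rescaling it was 0.05 with a limma adjusted p of 0.843.

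Counted over the 9 members, 1 passed in chronic hypoxia against standard oxygen, or 11.1%, where 2.69% of all 11067 genes tested did, and it was also the single member with an unadjusted p under 0.05, where 22.9% of all genes had one. In acute hypoxia 0 of 9 passed in limma, with 1 at an unadjusted p under 0.05, where 0.0273% of all genes passed and 7.14% had such an unadjusted p. Between chronic and acute hypoxia 0 of 9 passed in limma, with 0 at an unadjusted p under 0.05, where the shares of all genes were 0.695% and 20.8%. All 9 members had a mean above the filter of 1 TPM and were tested in every comparison. With the code as a block, a term for the shared code in the fit, the members called were the same in each comparison, while the share of all genes called grew to 0.71% in acute and 18.4% in chronic hypoxia against standard oxygen and 15.5% between chronic and acute hypoxia. The groups did not overlap, with hypoxia higher, for 2 of 9 members in acute hypoxia, where 7.63% of all genes did so, and for 1 of 9 in chronic hypoxia, where 24.2% did.

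The other 8 members are described by single-gene intervals, from the values as deposited and without a block. In acute hypoxia their log2 fold changes ran from -0.11 to 0.19 (median 0.01), and the outermost 95% limits were -0.54 and 0.46, or 0.688-fold and 1.38-fold. In chronic hypoxia against standard oxygen they ran from -0.10 to 0.22 (median 0.04), with outermost limits of -0.49 and 0.52, or 0.712-fold and 1.43-fold. Between chronic and acute hypoxia they ran from -0.09 to 0.10, with limits of -0.38 and 0.37. All 24 of these intervals, from the fit without a block, held 0. With the code block the interval of Acaa2 in chronic hypoxia against standard oxygen was 0.02 to 0.42, with a limma adjusted p of 0.11. Rescaling moved the chronic values to between -0.27 (Acadvl) and 0.05 (Acaa2), which turned the signs of Slc25a20, Acadm, Hadha and Hadhb, and none passed there either.

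**Figure D2:**
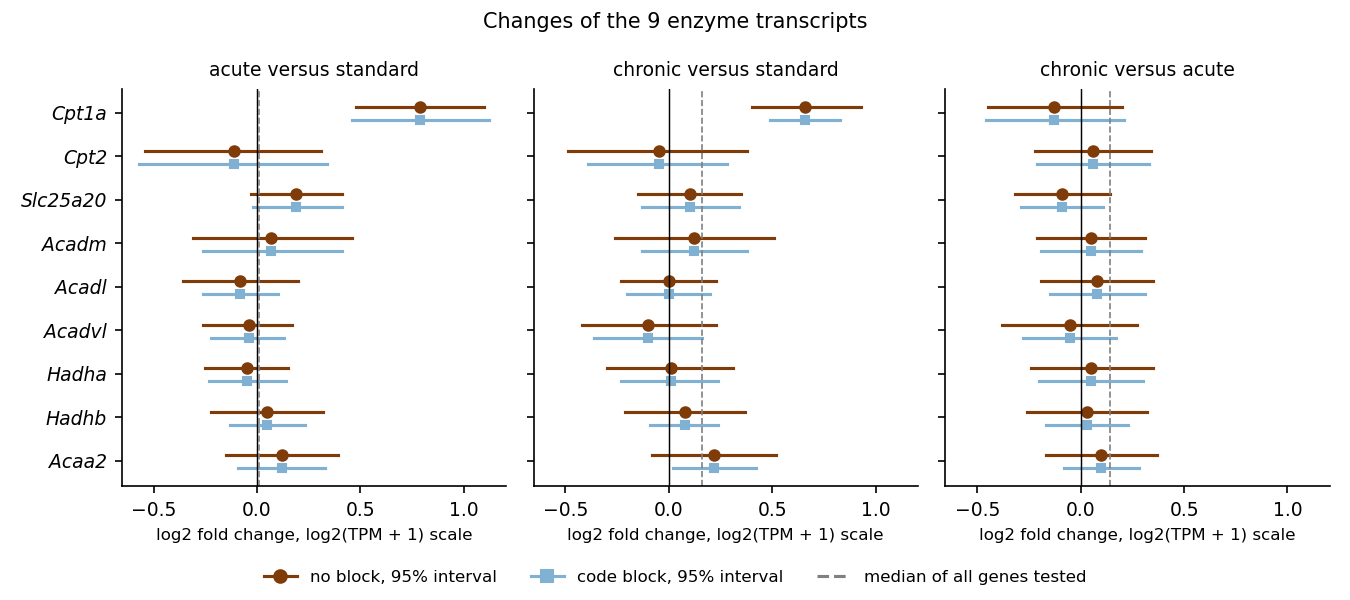
Log2 fold changes on the log2(TPM + 1) scale (x axis) of the 9 members in each comparison, with 95% intervals without a block (brown circles) and with the code block (blue squares); the dashed line is the median of all genes tested. Cpt1a stands at 0.79 and 0.66 against standard oxygen, and the points of the other 8 lie between -0.11 and 0.22 in all 3 panels.

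The order of the members shifted accordingly. In standard oxygen Cpt1a ranked between 6 and 7 of the 9 in each library, below Hadha, Hadhb, Acadl, Acadvl and Acaa2. In the hypoxic libraries it ranked between 1 and 3. By group mean it stood at 37.5 TPM at standard oxygen, between Acaa2 at 42.1 and Acadm at 35.1 TPM, with ranges that overlapped those of both. In acute hypoxia it had the highest mean, and in chronic hypoxia it came after Hadha, in both cases with ranges that overlapped those of its neighbours in the order. Slc25a20 and Cpt2 held places 8 and 9 in every library. Their ranges overlapped each other in standard oxygen and did not in either hypoxic group.

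The share of Cpt1a in the summed TPM of the 9 members was 9.83% to 10.5% in standard oxygen, 14.0% to 17.8% in acute hypoxia and 14.6% to 15.1% in chronic hypoxia. The sum of the other 8 was 331 ± 21.2 TPM at standard oxygen, 334 ± 8.47 TPM under acute hypoxia and 343 ± 28.8 TPM under chronic hypoxia (SD, n = 3), differences smaller than the spread between replicates. On the log2(TPM + 1) scale, the difference of Cpt1a from the mean of the other 8 in the same library was -0.09, -0.06 and 0.02 in standard oxygen, 0.85, 0.85 and 0.48 in acute hypoxia and 0.53, 0.59 and 0.59 in chronic hypoxia. Being a difference within a library, it hardly depends on how the library totals are scaled, and the 3 chronic values lay closer together than the 3 acute ones.

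**Figure D3:**
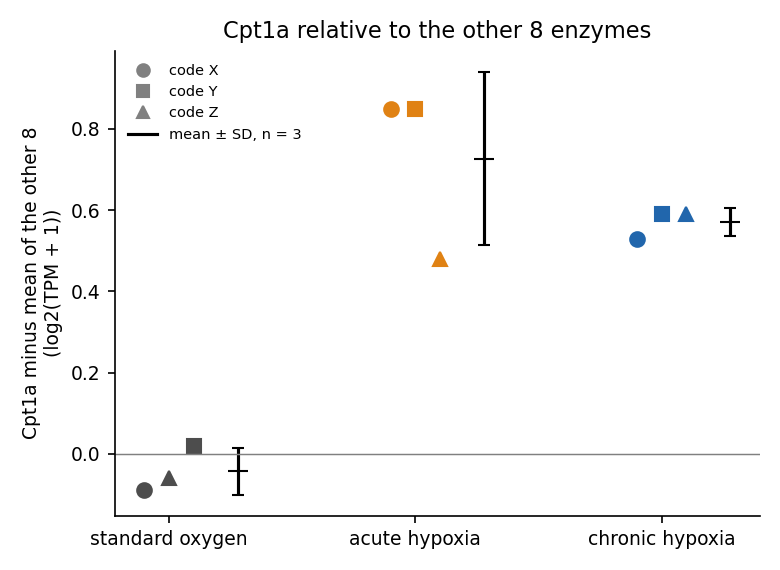
Difference between Cpt1a and the mean of the other 8 members within each library (y axis, log2(TPM + 1) scale), by oxygen group. Symbols mark the sample code and black the mean ± SD (n = 3); standard oxygen libraries lie between -0.09 and 0.02, acute hypoxia libraries between 0.48 and 0.85 and chronic hypoxia libraries between 0.53 and 0.59.

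The genes around this core were described through 8 lists with 83 genes. Against standard oxygen, 0 of 68 tested genes passed in acute hypoxia in limma, with 8 at an unadjusted p under 0.05, where 7.14% of all genes had one. In chronic hypoxia 3 of 67 passed, all lower, or 4.48% where 2.69% of all genes passed. With the code as a block, which added many calls here, 0 passed in acute hypoxia, and 8 were higher and 8 lower in chronic hypoxia, or 23.9% where 18.4% of all genes passed. With rescaling added to the block, 2 were higher and 9 lower, where 11.5% of all genes passed. Between chronic and acute hypoxia 0 of 67 passed in limma without a block, with 14 at an unadjusted p under 0.05, where 20.8% of all genes had one. With the code block 5 higher and 5 lower passed, or 14.9% where 15.5% of all genes did. The median log2 fold change of the listed genes was 0.01 in acute and 0.07 in chronic hypoxia against standard oxygen, where all genes had 0.01 and 0.16.

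Among the 18 other mitochondrial beta-oxidation enzymes, 0 passed without a block in any comparison, with 0, 3 and 1 at an unadjusted limma p under 0.05 in acute against standard, chronic against standard and chronic against acute. Of all genes, 7.14%, 22.9% and 20.8% had such a p in the same order. The median log2 fold change of the 18 enzymes in chronic hypoxia was 0.07. Acads, the short-chain acyl-CoA dehydrogenase, was 34.5, 37.0 and 34.9 TPM at standard oxygen, 35.0, 34.3 and 36.3 TPM under acute hypoxia and 26.7, 26.3 and 27.6 TPM under chronic hypoxia. The 3 chronic libraries lay below the other 6. Its log2 fold change was -0.39 ± 0.0905 against standard oxygen and -0.38 ± 0.0878 against acute hypoxia (SE). The limma adjusted p-values were 0.0796 and 0.0954 unblocked, and 0.0268 and 0.032 code-blocked. After rescaling without a block, Acads passed against standard oxygen (-0.56, limma adjusted p 0.0384) and not against acute hypoxia (-0.53, limma adjusted p 0.0555). Acat1, the acetoacetyl-CoA thiolase, differed by 0.42 between chronic and acute hypoxia, and the adjusted p in limma was 0.266 unblocked and 0.0362 code-blocked. With rescaling added to the block the Acat1 call was lost (0.27, limma adjusted p 0.114). Acad9, which is also an assembly factor of respiratory complex I, had the widest acute difference of the list, -0.27 with a limma adjusted p of 0.969.

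Supply and activation of fatty acids gave 2 of the 3 chronic calls. Fabp4, a fatty acid binding protein, was 305, 250 and 319 TPM at standard oxygen, 144, 165 and 255 TPM under acute hypoxia and 86.0, 90.2 and 99.8 TPM under chronic hypoxia. It fell in chronic hypoxia by 1.65 on the log2 scale (SE 0.126), with a limma adjusted p of 0.0077, and the 3 chronic libraries lay below the other 6. Its acute difference was -0.67 with a limma adjusted p of 0.561, and acute replicate 3, of code Z, lay within the standard oxygen range. Acss2, which makes acetyl-CoA from acetate, fell from 5.37 ± 0.65 to 2.32 ± 0.309 TPM (SD, n = 3). The change was -0.94 ± 0.165 (SE) on the log2 scale, with a limma adjusted p of 0.0437. The Fabp4 call was lost without chronic replicate 2 (limma adjusted p 0.0654). The Acss2 call was lost without any single library other than standard oxygen replicate 2, with limma adjusted p-values of 0.0563 to 0.195. Acsl1, a long-chain acyl-CoA synthetase, was 65.0 ± 3.63 TPM at standard oxygen, 52.8 ± 8.09 in acute and 79.0 ± 20.8 in chronic hypoxia (SD, n = 3). It passed in no comparison, though its acute libraries lay below standard oxygen. Slc27a1, a fatty acid transport protein, was higher by 0.46 in chronic hypoxia and passed with the code block alone (limma adjusted p 0.0175 against 0.197). With rescaling added to the block it was 0.29 and did not pass (limma adjusted p 0.0523). Of the remaining uptake genes, Cd36 (-0.65) and Fabp5 (-0.95) passed in chronic hypoxia with the code block alone, with limma adjusted p-values of 0.0131 and 0.00774 against 0.479 and 0.242 without it. These 3 were chosen here after their values were seen, and Cd36 and Fabp5 were lower in the libraries of code Z than in the other 6.

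The carnitine and malonyl-CoA list held no call in any comparison without a block, with 0 genes at an unadjusted limma p under 0.05. Crot, the peroxisomal carnitine octanoyltransferase, was 18.9 ± 0.547 TPM at standard oxygen and 22.9 ± 2.94 TPM under chronic hypoxia (SD, n = 3, log2 fold change 0.26, limma adjusted p 0.269). Mlycd, which breaks down malonyl-CoA, was 14.8 ± 0.923, 16.2 ± 0.87 and 15.3 ± 1.43 TPM at standard oxygen, acute and chronic hypoxia (SD, n = 3). Cpt1b, the muscle-type isoform, had means of 0.388, 0.719 and 1.39 TPM in the same order and was tested between chronic and acute hypoxia alone (0.49, limma adjusted p 0.573). Of its 75-base stretches 92.1% also occur in the overlapping gene model Gm44502, so its value is uncertain. Acacb, the acetyl-CoA carboxylase tied to the mitochondrial surface, and Cpt1c stayed below the filter in every comparison.

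Peroxisomal beta-oxidation, which shortens very long chains, had 0 calls without a block in each comparison, with 1, 4 and 4 genes at an unadjusted limma p under 0.05 in the order used above. Of all genes, 7.14%, 22.9% and 20.8% had such a p. With the code block 4 of 11 passed in chronic hypoxia against standard oxygen, where 18.4% of all genes passed and the median log2 fold change was 0.16. All 4 were higher: Abcd2 (0.88), Acox3 (0.42), Scp2 (0.36) and Hsd17b4 (0.28), with limma adjusted p-values of 0.0128, 0.0227, 0.046 and 0.0466. With rescaling added, Abcd2 alone of these passed (0.71, limma adjusted p 0.0217). Abcd2 imports very-long-chain acyl-CoA into peroxisomes and was 13 ± 2.53 TPM at standard oxygen, 20.4 ± 5.06 in acute and 25.3 ± 7.69 in chronic hypoxia (SD, n = 3). Both hypoxic groups lay above standard oxygen. Amacr, a racemase for branched chains, differed by 0.56 between chronic and acute hypoxia (limma adjusted p 0.159).

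Of the acyl-CoA thioesterases, which release free fatty acids, Acot1 was 10.9 ± 0.619 TPM at standard oxygen and 19.3 ± 5.88 TPM under chronic hypoxia (SD, n = 3). On the log2 scale the difference was 0.73, and the adjusted p in limma was 0.117 unblocked and 0.0358 code-blocked. With rescaling added to the block the Acot1 call was lost (0.56, limma adjusted p 0.0813). Of its 75-base stretches, 15.5% occur in Acot2 or Acot5. Acot8 differed by 0.31 in acute hypoxia with a limma adjusted p of 0.972. As a guide to mitochondrial genes at large, 0 of 15 listed content genes passed without a block in any comparison. At an unadjusted limma p under 0.05 there were 0, 1 and 1, where 7.14%, 22.9% and 20.8% of all genes had one. The median log2 fold change of the content genes in chronic hypoxia was 0.00 as deposited and -0.18 after rescaling, beside 0.08 and -0.10 for the 9 members. Tfam, the mitochondrial transcription factor, was 17.2 ± 4.28 TPM under acute and 27.5 ± 6.15 TPM under chronic hypoxia (SD, n = 3, limma adjusted p 0.187 without a block and 0.0386 with the code block). That call too was lost with rescaling added (0.50, limma adjusted p 0.0807). Vdac1 was 151.6 ± 9.71 TPM at standard oxygen and 198.2 ± 11.9 TPM under chronic hypoxia (SD, n = 3), without overlap. It passed as higher there with the code block, and not with rescaling added. Hspd1, a matrix chaperonin, had the widest acute difference of the content genes (-0.21, limma adjusted p 0.978).

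**Figure D4:**
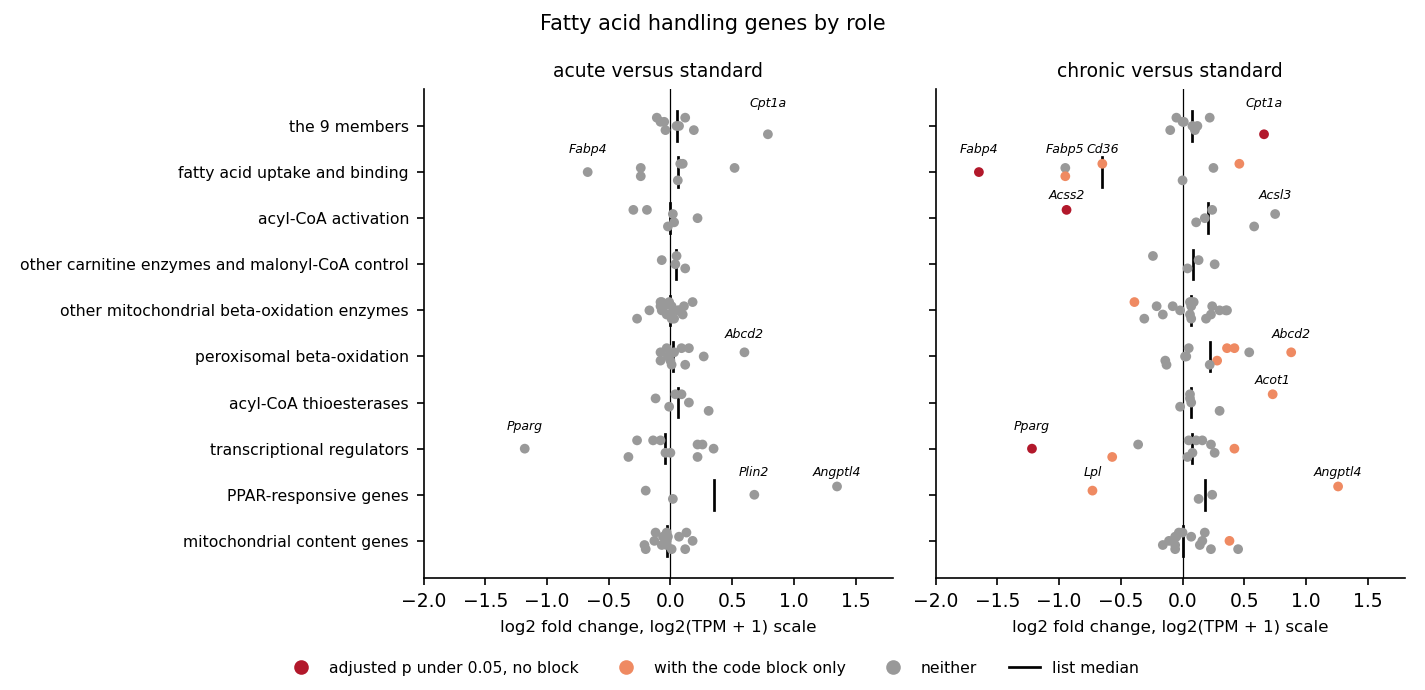
Log2 fold changes on the log2(TPM + 1) scale (x axis) of the tested genes of each list (rows) in acute and chronic hypoxia against standard oxygen; vertical bars are list medians and colours give the call. Dark red marks the 4 genes that passed without a block in chronic hypoxia (Cpt1a, Fabp4, Acss2 and Pparg), and no point in the acute panel is coloured.

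PPARs are nuclear receptors that bind fatty acids and drive fatty acid oxidation genes, Cpt1a among them. Ppara was at most 0.0509 TPM in any library, so the receptors present were Pparg and Ppard. Pparg was 34.5, 33.8 and 33.9 TPM at standard oxygen, 12.8, 12.5 and 18.7 TPM under acute hypoxia and 16.9, 12.2 and 13.6 TPM under chronic hypoxia. All 6 hypoxic libraries lay below the 3 standard oxygen libraries. Pparg fell in chronic hypoxia by 1.22 on the log2 scale (SE 0.136), with a limma adjusted p of 0.0146, and the call was lost without standard oxygen replicate 1 or 3 or chronic replicate 2 (limma adjusted p 0.0798 to 0.103). In acute hypoxia the log2 fold change was -1.18 ± 0.161 (SE), and the adjusted p in limma was 0.0874 unblocked and 0.0514 code-blocked. After rescaling without a block the acute value was -1.2 and passed, with a limma adjusted p of 0.0458. Ppard was 16 ± 2.57 TPM at standard oxygen, 20.2 ± 7.85 TPM under acute and 12.2 ± 0.376 TPM under chronic hypoxia (SD, n = 3), and passed in no comparison. The coactivator gene Ppargc1a was at most 0.052 TPM.

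Of 10 listed genes known to respond to PPARs, 4 were tested and 0 passed without a block in each comparison, with 2 at an unadjusted limma p under 0.05 in each. Genes placed in other lists, such as Cpt1a and Fabp4, which passed in chronic hypoxia, are not in this count. Of all genes, 7.14%, 22.9% and 20.8% had such a p in the order used above. Angptl4, a secreted inhibitor of lipoprotein lipase, was 2.34, 3.36 and 1.95 TPM at standard oxygen, 9.04, 9.10 and 5.99 TPM under acute hypoxia and 5.44, 5.97 and 12.3 TPM under chronic hypoxia. All 6 hypoxic libraries lay above standard oxygen. Its log2 fold changes were 1.35 in acute and 1.26 in chronic hypoxia, with limma adjusted p-values of 0.143 and 0.091 unblocked, and 0.118 and 0.0168 code-blocked. Lpl, lipoprotein lipase, was 2264 ± 152.7 TPM at standard oxygen and 1399 ± 400.8 TPM under chronic hypoxia (SD, n = 3). The difference of -0.73 on the log2 scale had an adjusted p in limma of 0.111 unblocked and 0.0373 code-blocked. Plin2 was 1431 ± 206.4 TPM at standard oxygen, 2287 ± 188.3 in acute and 1686 ± 154.9 in chronic hypoxia (SD, n = 3). Its 3 acute libraries lay above the 3 standard oxygen libraries. The acute log2 fold change was 0.68, with a limma adjusted p of 0.209 unblocked and 0.132 code-blocked. Between chronic and acute hypoxia Plin2 passed as lower with the code block. Pdk4, which rises with PPAR activity in fasted liver, was at most 0.0231 TPM.

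**Figure D5:**
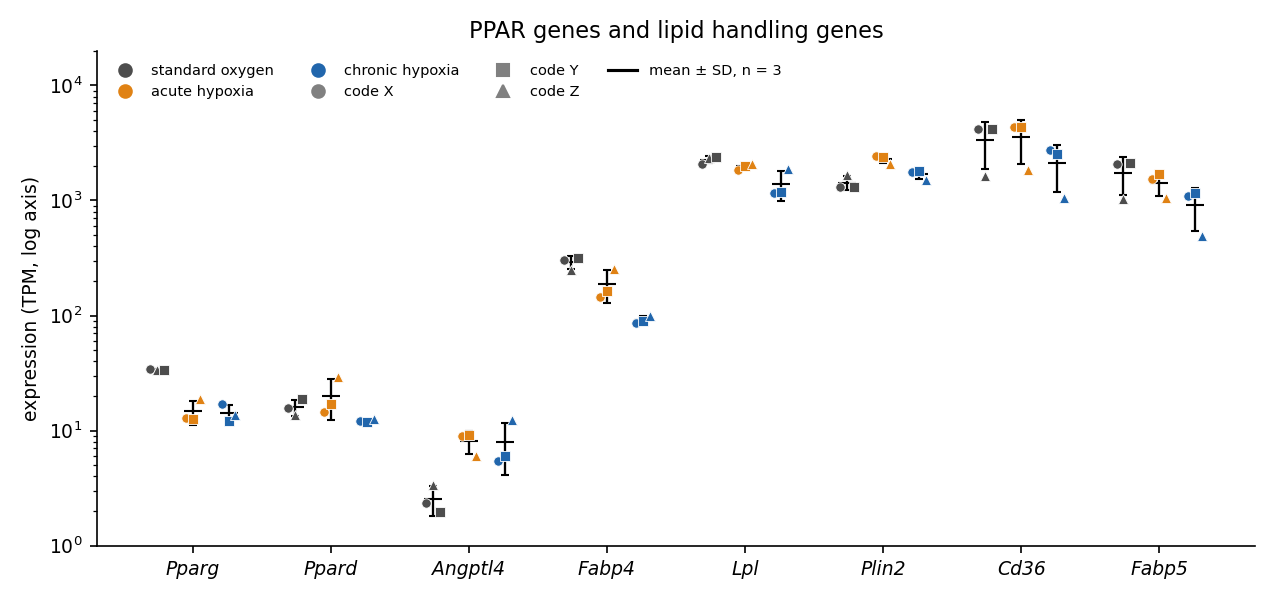
Expression (TPM, log axis) of PPAR receptor genes and lipid handling genes in each library, with colours for the oxygen group, symbols for the sample code and black for the mean ± SD (n = 3). Pparg lies at 33.8 to 34.5 TPM at standard oxygen and at 12.2 to 18.7 TPM in the hypoxic libraries, and the triangles of code Z lie low in Cd36 and Fabp5.

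As a check of the oxygen labels, 7 of 9 genes known to respond to hypoxia passed in chronic hypoxia against standard oxygen, all higher. Of all genes 2.69% passed there. In acute hypoxia 1 of 9 (Hilpda) passed, where 0.0273% of all genes did. At an unadjusted limma p under 0.05 there were 7 in acute hypoxia, where 7.14% of all genes had one. The acute Hilpda call was lost without standard oxygen replicate 1 or 3 or acute replicate 2 (limma adjusted p 0.0716 to 0.194). Its chronic call was lost without standard oxygen replicate 1 or 3 or chronic replicate 1 or 2 (limma adjusted p 0.115 to 0.165). The 7 of chronic hypoxia were Slc2a1, Pdk1, Vegfa, Egln3, Bnip3, Ndrg1 and Hilpda. With the code block, 5 of the 9 passed in acute and 8 in chronic hypoxia against standard oxygen, all higher. Of all genes 0.71% and 18.4% passed there. Car9 did not rise and was 13.5 ± 3.11 TPM at standard oxygen, 10.8 ± 2.57 in acute and 13.2 ± 3.32 in chronic hypoxia (SD, n = 3). Cpt1a at 0.66 stood near Hilpda at 0.63 in chronic hypoxia, and below the list's median of 1.51. After rescaling the Hilpda change of 0.45 did not pass (limma adjusted p 0.0952). Against Egln3 (5.16) and Bnip3 (2.73) its chronic change was small. Among all 11067 genes tested, 8.66% had a chronic log2 fold change at least as high as that of Cpt1a, and in acute hypoxia 1.8% did.

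The gene most like each member was sought among 7082 genes with a mean of at least 10 TPM, by the root mean square difference between log2(TPM + 1) profiles over the 9 libraries after centring each on its mean. For Cpt1a it was Vhl, which encodes the subunit of a ubiquitin ligase that marks hypoxia-inducible factors for destruction, with a difference of 0.118 where the median gene had 0.402. Vhl was 9.72, 9.72 and 9.88 TPM at standard oxygen, 17.9, 18.2 and 16.6 TPM under acute hypoxia and 13.4, 14.5 and 14.8 TPM under chronic hypoxia. Its 6 hypoxic libraries lay above the standard oxygen libraries, as in Cpt1a. This follows largely from its choice by likeness to Cpt1a over the same libraries. Of the other members, the most alike genes were Ccl2 for Cpt2, Etnk1 for Slc25a20, Psmd13 for Acadm, Ppp2r5b for Acadl, Memo1 for Acadvl, Micall2 for Hadha and Rps27l for Hadhb, with differences of 0.0431 (Ppp2r5b) to 0.0817 (Ccl2). The 9 libraries share 3 codes and 3 oxygen groups, so such likeness is a description of these samples.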

How the data were processed

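The deposited values are TPM, in 3 tables that each hold the 6 samples of a pair of groups. Per the submitters' processing notes the tools were FastQC, STAR and featureCounts with the genome build GRCm38. Versions, the annotation, the strand setting and how TPM was computed are not given in the sources used here. Each sample had identical values in its 2 tables, and every column summed to 1000000 within rounding. TPM keeps no depth, so no counting error and no count test was used. Columns were matched to samples by the description label, and symbols and positions came from GENCODE M21.

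Each comparison was fitted on its 6 samples with limma 3.58.1 in R 4.3.3 (eBayes with trend, two-sided) on log2(TPM + 1), over genes with a mean of at least 1 TPM. This scale understates changes of low genes. A gene was called where its p, adjusted by Benjamini and Hochberg over all genes tested, was under 0.05. The script was tested on simulated data. The design text calls the samples biological replicates, but how the cultures were separated is not given.

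The members, the 8 pathway lists, the mitochondrial content, hypoxia and 7 marker lists and the tests were chosen with earlier results of these data known. Named beside the members are list genes that passed without a block in any comparison, the gene of each list with the widest difference in each comparison and the gene most like each member. Acox3, Scp2, Hsd17b4, Slc27a1, Cd36, Fabp5, Plin2, Vdac1, Etfb, Rxra and Mertk fall outside this rule. They were named after their values were seen, for calls with the code block or for their levels in code Z. Car9 also falls outside it and was named as a hypoxia gene that did not rise. Marker genes and list genes below the filter are also named outside it. Some genes that this rule or the lists name are not reported here.

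Pairing was checked by correlating, across genes, the deviations of 2 samples from their group means. Samples of the same code gave r of 0.375 to 0.631 in every pair. Samples of the same title number gave -0.508 to 0.631, since the numbers match the codes between acute and chronic hypoxia but not for 2 of 3 standard oxygen samples. The title-number pairs with a negative r each set a library of code Z against one of code Y. Libraries of code X were not correlated with those of code Y. The check therefore sets code Z apart but cannot tell whether X matches X and Y matches Y. The code was taken as the pairing from the shared digits, whose meaning the labels do not state. Its fits are given for some of the genes whose call they change. Alternatives were other pseudocounts (0.1 and 5), other filters, no trend, quantile normalization, median-of-ratios rescaling, a joint fit of the 9 samples, either block and the omission of samples.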

Additional observations from a re-analysis of the deposited data

How the results depend on the processing

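Cpt1a was higher in hypoxia than in standard oxygen under all 21 alternatives of each comparison. In chronic hypoxia its log2 fold change ran from 0.49 to 0.72 and its limma adjusted p from 0.00925 to 0.6, and 11 of the 21 kept the call. In acute hypoxia it ran from 0.67 to 0.96 (limma adjusted p 0.0105 to 1), and 2 of the 21 called it. None of the 504 values of the other 8 members was called, and 57 of them changed sign. With 3 libraries a group and unknown depth, changes within the intervals given for these 8 could not be seen.

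The count of members called in chronic hypoxia against standard oxygen (1) became 0 without a filter on low values, without the trend, with quantile normalization, with the title number as a replicate block and without code X or code Y, and ran from 0 to 1 without single replicates. Cpt1a had an unadjusted p under 0.05 in each of these, and the count was 1 when blocked by code. In acute hypoxia (0) it became 1 with the code block and all 9 samples in 1 fit and without code Z.

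The count of all genes called in acute hypoxia (3) became 5 without the trend, 21 with rescaling, 23 with quantile normalization, 25 with all 9 samples, 0 with the title block (579 genes had an unadjusted p under 0.05), 78 when blocked by code, 57 with block and rescaling and 204 with block and all 9 samples. It was 0 without code X or code Y (341 and 287 unadjusted), 319 without code Z and 0 to 33 without single replicates. In chronic hypoxia against standard oxygen (298) it became 120 without a filter, 166 without the trend, 764 with all 9 samples, 1 with the title block, 2039 with the code block, 1272 with block and rescaling and 2909 with block and all 9 samples. It was 1 without code X, 1 without code Y, 2300 without code Z and 1 to 522 without single replicates. Between chronic and acute hypoxia (77) it became 7 without a filter, 25 without the trend, 415 with all 9 samples, 1724 with either block, 1088 with the code block and rescaling and 2450 with block and all 9 samples. It was 1 without code X, 0 without code Y (770 unadjusted), 1788 without code Z and 1 to 308 without single replicates. Leaving out a code or replicate leaves fewer samples, and dropping the filter tests more genes. The cause of the other shifts was not tested.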

Other observations

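Some genes of fatty acid handling separated the 3 libraries of code Z from the other 6 without overlap. Etfb, the beta subunit of the electron transfer flavoprotein that takes electrons from the acyl-CoA dehydrogenases, ran from 217 to 233 TPM in the 3 code Z libraries, against 127 to 142 TPM elsewhere. Rxra, the nuclear receptor partner of the PPARs, ran from 9.72 to 16.6 TPM there and from 25.3 to 41.6 TPM elsewhere. Cd36 was 1057 to 1852 TPM against 2534 to 4386 TPM, and Fabp5 493 to 1044 TPM against 1093 to 2131 TPM. What the codes stand for is not stated in the labels.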
